A study of Gallus gallus with 3 samples.

Results

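BP5 and BSP-II, peptides first isolated from the bursa of Fabricius, were set against each other in the chicken B lymphoma line DT40. DT40 cells exposed for 4 h to BP5 at 0.02 µg/ml gave 1 array and DT40 cells exposed for 4 h to BSP-II at 2 µg/ml gave 1 array. These 2 of the 3 arrays of the series were chosen because they were read in the same scan, per the file headers. The third array, untreated DT40 cells at 0 µg/ml and 4 h, came from the same slide but another scan and is given only as a value beside the others. All cells grew in RPMI 1640 with fetal bovine and avian serum, and total RNA was labelled with Cy3 for 1-colour Agilent chicken arrays. Peptide and dose cannot be told apart, because each peptide was given at its own dose. With 1 array per group there is no replicate check, no test and no p-value, and the number of arrays limits the precision.

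Birds form their B cells in the bursa, an organ that mammals lack, where B cell precursors expand and diversify their immunoglobulin genes by gene conversion. Small peptides purified from bursal tissue are studied as signals for B cell development and antibody responses. DT40 cells are a single transformed line of bursal origin that continues gene conversion in culture, so they show the response of 1 cell type and not that of the organ.

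Of 42034 probes, 15991 were well above background with BP5, 16656 with BSP-II and 19592 in the control. A level here is log2 of the processed spot signal relative to the 75th percentile of its array, which was 183.3 for BP5, 158.5 for BSP-II and 262.6 for the control. The lowest level that counted as well above background was -1.90 with BP5 and -2.11 with BSP-II. In all, 15544 probes were well above background on both peptide arrays without an outlier flag, and 2602 genes with a symbol were among them, 2547 of them through 1 probe. A difference is the BP5 level minus the BSP-II level, less the median difference of the 15 nearest measured probes. The ± beside it is the scanner software's error of both spots, which covers neither culture nor labelling. For bright genes of 1 probe it was close to a constant 0.20, and it was not checked against repeated spots.

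DT40 identity was checked first. Of 11 B cell markers on the array, 6 were detected on both peptide arrays, among them JCHAIN, the joining chain of secreted IgM (7.44 with BP5, 7.60 with BSP-II and 7.34 in the control), and the transcription factor IRF4 (7.05, 6.88 and 6.42). CD79B, PAX5, EBF1 and SPI1 did not stand well above background on any of the 3 arrays, and LYN was so on the control array only. Of 7 T cell markers CD3D and CD247 were detected on both peptide arrays, as were AVD, LYZ and CTSK of 7 macrophage and granulocyte markers. TUBB1 of 2 erythroid and thrombocyte markers and CLDN3, CDH1 and EPCAM of 8 fibroblast, epithelial and endothelial markers were detected as well. CD3E, CD4, CD8A, MARCO, TREM2, HBBA and COL3A1 were not.

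The comparison asked which transcripts were present at different levels after the peptides. Few were. Levels on the arrays correlated at 0.988 across the 15544 probes, which share slide and scan, and 93.2% of the 2602 genes lay within 1.5-fold of each other. The differences had a median of -0.04 and an SD of 0.33 across genes, and 95% of genes lay between -0.63 and 0.62. The median spot error was 0.20. At 2-fold or more, 5 genes (0.192%) were higher with BP5 and 14 (0.538%) were lower, 19 (0.73%) in all. Without subtraction of the neighbouring probes 3 (0.115%) were higher and 38 (1.46%) lower. Quantile normalization, also without this subtraction, gave 4 and 31, so the split between the directions depends on the processing. Among all 15544 probes, most of them unnamed here, 102 (0.656%) were 2-fold higher with BP5 and 68 (0.437%) 2-fold lower.

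**Figure D1:**
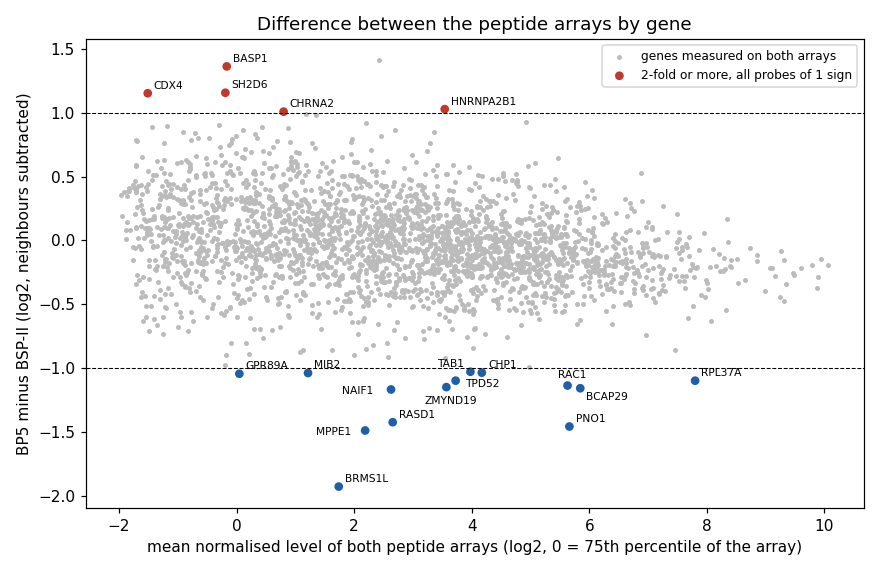
Each point is 1 of 2602 genes. The horizontal axis is the mean level on both peptide arrays (log2, 0 is the 75th percentile of the array) and the vertical axis is BP5 minus BSP-II (log2, neighbouring probes subtracted), with dashed lines at 2-fold. The 5 named red genes were higher with BP5 and the 14 named blue genes lower. The grey point near the top is STRADA, whose probes differed in sign.

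BASP1, a myristoylated membrane protein that also acts as a transcriptional co-repressor, showed the largest difference of the genes higher with BP5. Its level was 0.46 with BP5, -0.80 with BSP-II and 0.84 in the control, so it was low on the BSP-II array alone. The difference was 1.36 ± 0.24, or 2.57-fold. SH2D6, a protein with an SH2 domain, which binds phosphorylated tyrosines, stood at 0.34 with BP5, -0.72 with BSP-II and -1.10 in the control. Here BP5 was the high array, and the difference was 1.16 ± 0.24 (2.23-fold). The homeobox factor CDX4 read -1.07, -1.96 and -2.90 in the same order, with a difference of 1.15 ± 0.37. CDX4 was dim throughout, and its BSP-II level lay just above the lowest that counted as well above background.

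HNRNPA2B1, an RNA-binding protein of pre-mRNA processing, had a level of 3.97 with BP5, 3.11 with BSP-II and 3.41 in the control. The control lay between the peptides, and the difference was 1.03 ± 0.20. CHRNA2, a subunit of nicotinic acetylcholine receptors, read 1.24, 0.36 and -1.23, with a difference of 1.01 ± 0.21. CHRNA2 lies in column 3 and BASP1 in column 83 of 85, both near an array edge. No gene of the 5 stayed past 2-fold under every other processing: the difference of BASP1 was 0.82 at its lowest, SH2D6 0.74, CDX4 0.66, HNRNPA2B1 0.72 and CHRNA2 0.67.

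Other genes in this direction were below 2-fold. Among them were PPP2R5C, a regulatory subunit of the phosphatase PP2A (0.99 ± 0.21), the RNA helicase DDX1 (0.98 ± 0.21) and HNRNPH3, a relative of HNRNPA2B1 (0.93 ± 0.20). DDX1 lies in column 83 near the array edge. IGF2R, the sorting receptor for lysosomal enzymes, had a difference of 0.92 ± 0.21, the heme-sensing repressor BACH1 0.91 ± 0.24 and SENP5, a protease of SUMO conjugates, 0.89 ± 0.22. The value of BACH1 comes from the subtraction: its own level was lower with BP5 (-0.44) than with BSP-II (-0.18), and its neighbours had a median difference of -1.17.

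**Figure D2:**
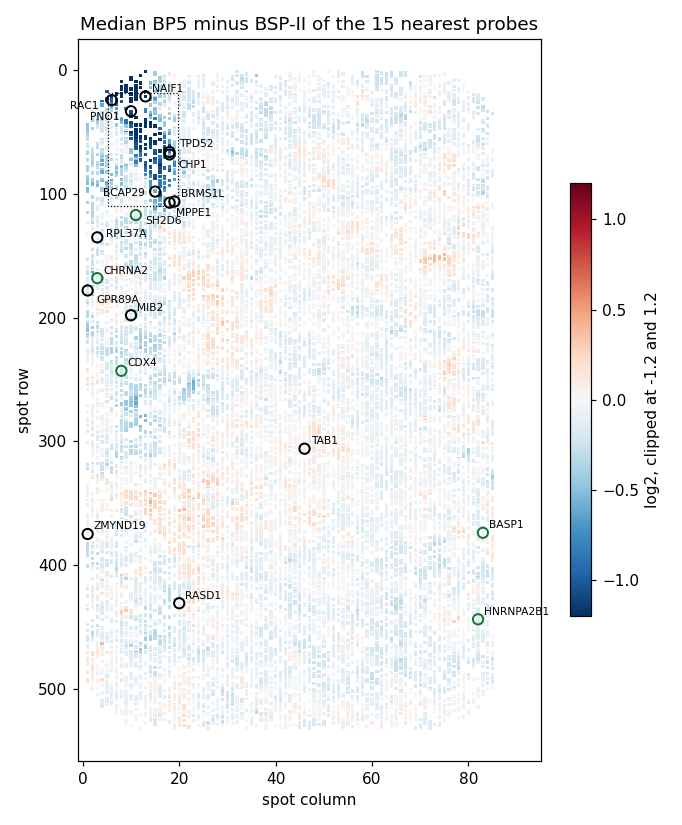
Spot row and column of the 15544 measured probes, coloured by the median BP5 minus BSP-II of the 15 nearest probes (log2, blue is lower on the BP5 array, clipped at -1.2 and 1.2). Green circles are the 5 genes higher with BP5, black circles the 14 lower, and the dotted box holds rows 21 to 107 and columns 6 to 19. The box is dark blue and was drawn around 8 of the 14 lower genes.

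Of the 14 genes lower with BP5, 8 (57.1%) lay in 1 block of the array, rows 21 to 107 and columns 6 to 19, which held 2.11% of the measured genes. The block was outlined after these genes were seen, and its edges are the outermost spots of the 8. That all 8 lie inside is therefore fixed by the outline, and the share is no test. The outline is not the extent of the uneven area. FBXO8 at row 17, column 5 lies outside it, and its neighbours had a median of -1.02. The 340 measured probes of the block had a median difference of -0.60 before subtraction, against -0.07 elsewhere. Relative to the control, the block's median was -0.50 with BP5 and 0.18 with BSP-II, against -0.03 and 0.03 elsewhere. After subtraction the SD across its probes was 0.53, against 0.35 elsewhere. The part of the uneven area in the differences of these 8 genes was not tested beyond this subtraction.

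Those 8 genes were BRMS1L, MPPE1, PNO1, NAIF1, BCAP29, RAC1, TPD52 and CHP1. BRMS1L, a subunit of SIN3 histone deacetylase complexes, had the largest difference: its level was 0.67 with BP5, 2.80 with BSP-II and 2.89 in the control, a difference of -1.93 ± 0.21, or 3.80-fold lower with BP5. MPPE1, an enzyme that remodels GPI anchors, read 1.23, 3.14 and 3.18, with a difference of -1.49 ± 0.21. The spots of BRMS1L and MPPE1 lie at row 106, column 19 and row 107, column 18, and each is the lowest of the other's 15 neighbours. PNO1, an assembly factor of the small ribosomal subunit, read 4.41, 6.91 and 6.72, with a difference of -1.46 ± 0.20 after its neighbours' median of -1.05 was subtracted.

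For the other genes of the block the BP5 array was again the low array, and the control level lay nearer to BSP-II than to BP5. These levels are not corrected for the uneven area. NAIF1, a nuclear inducer of apoptosis, had a difference of -1.17 ± 0.21, and BCAP29, a membrane protein of the endoplasmic reticulum, -1.16 ± 0.20. RAC1, a small GTPase of the actin cytoskeleton, had -1.14 ± 0.20, TPD52 -1.10 ± 0.20 and the calcium-binding protein CHP1 -1.04 ± 0.20. The differences of MPPE1, NAIF1, BCAP29, RAC1, TPD52 and CHP1 before subtraction lay within the range of their 15 neighbours, while those of BRMS1L and PNO1 lay below it. Across all measured genes 10.3% lay outside that range, and across the 19 genes past 2-fold 68.4%. The 2-fold calls use the same 15 neighbours, so the larger share follows in part from the selection and is no separate support. The neighbours' median was 0.5 or more from 0 for 42.9% of the 14 lower genes, all in the block, against 1.61% of all measured genes.

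The 6 lower genes outside the block were RASD1, ZMYND19, RPL37A, GPR89A, MIB2 and TAB1. All 6 lay below the range of their neighbours, which the call favours because it uses the same neighbours. RASD1, a Ras-related protein first found as induced by dexamethasone, read 1.92 with BP5, 3.39 with BSP-II and 3.81 in the control. BP5 was the low array, the neighbours' median was -0.05, and the difference was -1.42 ± 0.21 (2.68-fold lower). It was at least 1.33 below BSP-II under all 14 other settings that measured it, the only gene outside the block past 2-fold in each. MIB2, a ubiquitin ligase of Notch ligands, read 0.60, 1.83 and 1.77, with a difference of -1.04 ± 0.21 that reached -0.95 at the least. TAB1, an activator of the kinase TAK1 downstream of Toll-like receptors, read 3.52, 4.44 and 4.64, with a difference of -1.03 ± 0.20. TAB1 passed 2-fold in 4 of 14 other settings.

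GPR89A, ZMYND19 and RPL37A lie in columns 1, 1 and 3 at the array edge, and on each of them both peptide arrays were above the control. RPL37A, a protein of the large ribosomal subunit, read 7.24 with BP5, 8.36 with BSP-II and 6.24 in the control, with a difference of -1.10 ± 0.20. ZMYND19 read 3.02, 4.12 and 1.51 (-1.15 ± 0.20). GPR89A, a channel of the Golgi, read -0.57 and 0.66 with the peptides and was not well above background in the control (-1.04 ± 0.24).

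**Figure D3:**
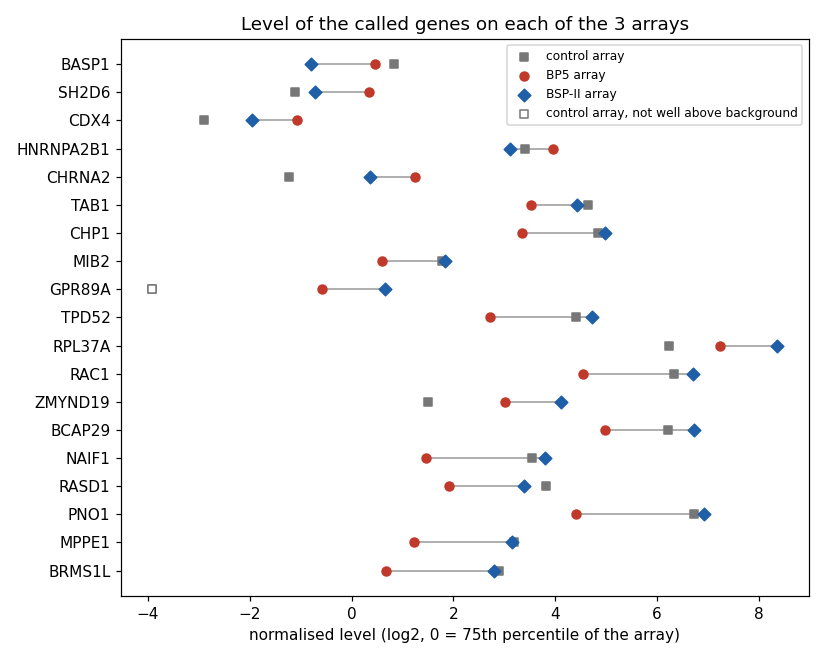
Levels (log2, 0 is the 75th percentile of the array) of the 19 genes past 2-fold on the control array (grey), the BP5 array (red) and the BSP-II array (blue), 1 array each. For 11 of the 14 genes lower with BP5 the BSP-II level lay closer to the control than the BP5 level did. Of these 11, 8 lie in the uneven block, for which the levels are not corrected.

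Side by side with the control, the levels of the 19 genes fell into no single order. For 11 of the 14 genes lower with BP5, and 4 of the 5 higher with BP5, the BSP-II level was the closer to the control. Of these 11 genes 8 are those of the uneven block, where the BP5 array read low, and levels are not corrected for it. The share of all 2602 genes with BSP-II the closer was not counted. Both peptide comparisons share the control array, which was read in another scan, so these orders rest on that array too. All 19 genes past 2-fold rested on 1 probe each.

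STRADA, a pseudokinase that activates the kinase LKB1, gave the largest single-probe difference of all 15544 probes and was not counted, because its other probe had the opposite sign. The probe at row 437 read 1.4996 with BP5, -1.54 with BSP-II and 0.74 in the control, a difference of 3.14 ± 0.28. The probe at row 73, with the same accession, read 4.71, 5.03 and 4.58, a difference of -0.32 ± 0.20. STRADA was singled out after its values were seen. Across the 51 genes with 2 measured probes, the differences of the paired probes had a Pearson's r of 0.02 and a Spearman's rho of 0.29, and 0.23 and 0.36 over the 50 genes without STRADA. These are descriptions across genes of shared arrays. In 32 of the 51 pairs the signs were the same, and the median gap between paired probes was 0.26.

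Some genes were well above background on 1 peptide array only and have a bound, taken without subtraction of neighbours. Of 21 such genes with BP5, TPR, a nuclear pore protein, was at least 2.03-fold higher with BP5, the only bound of these past 2-fold. SLC46A3, a lysosomal transporter, was at least 1.89-fold higher and the cyclin-dependent kinase CDC2L1 at least 1.72-fold. SLC46A3 lies in column 85 at the array edge. Of 58 such genes with BSP-II, FMOD, the matrix proteoglycan fibromodulin, was at least 3.24-fold higher with BSP-II and ZDHHC18, a palmitoyltransferase, at least 2.80-fold. FMOD and ZDHHC18 lie in the uneven block, at row 81, column 17 and row 39, column 11. The homeobox factor VSX1 followed with at least 1.78-fold. For 18 of the 58 genes the bound was under 1 and gives no direction.

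MCM5, DNMT1, CHAF1B and GDF3, which differ strongly between the control and both peptides in these arrays, were not past 2-fold between the peptides. MCM5, a subunit of the replicative helicase, read -1.89 with BP5, close to the lowest level that counted as well above background, -1.31 with BSP-II and 2.12 in the control. The difference between the peptides was -0.63 ± 0.39. The maintenance DNA methyltransferase DNMT1 read -0.25, 0.36 and 2.44 (-0.49 ± 0.23), and the histone chaperone subunit CHAF1B -1.16, -0.90 and 1.37 (-0.12 ± 0.29). DNMT1 lies in column 85 and GDF3 in column 2, both at an array edge. GDF3, a secreted TGF-beta relative, read 0.81, 0.43 and -2.70, with a difference of 0.73 ± 0.21.

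Gene lists were read against all 2602 genes, of which 3.54% passed 1.5-fold upward with BP5 and 3.19% downward, around the median of -0.04. The difference also ran with signal. With measured probes cut by signal into 10 bins of like size, the median difference was 0.13 in the dimmest bin and -0.18 in the brightest. Some list medians are therefore also given after a running median over signal was subtracted, which puts the median of all genes at 0.02. Unless stated, single genes are given without this correction. With it HSPA2 (-0.37), SLC19A1 (-0.39), CSNK2A1 (-0.46), NPC2 (-0.47) and EIF3L (-0.52) fell under 1.5-fold. So did TTK (0.48), VAV3 (0.51), BCL2L1 (-0.54), BRCA1 (0.57) and SLC23A2 (0.581), while PGD (0.72) passed 1.5-fold. Of the genes named below, TIPIN, CSNK2A1, MRPS6, GDF3 and 1 probe of HSPA2 lie in columns 1 to 3 at the array edge. IRF2 lies in column 84 near the other edge, and NOC2L in the uneven block. MCM5, IRF1, MYLIP and STBD1 with BP5, and ATM and TTK with BSP-II, were close to the lowest level that counted as well above background. Some genes pass 1.5-fold only after subtraction of neighbours. Before it, BCL2L1 stood at -0.35, NPC2 at -0.35, KDM3A at 0.36, GDF3 at 0.38 and SLC19A1 at -0.40. NFKB2 stood at -0.41, NOC2L at 0.44 and NFE2L2 at 0.45. The same holds for TTK (0.38 before subtraction), CSNK2A1 (-0.44), BRCA1 (0.46) and SMC3 (0.50). It also holds for SLC23A2 (0.53), BRD8 (-0.53), TIPIN (-0.55) and CTNNB1 (0.56). IFI6 (-0.62), CTSS (-0.60), MRPL37 (-0.61), MRPS6 (-0.74) and H2AFY (-0.70) pass 1.5-fold only before subtraction.

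Signalling lists come first, beginning with receptors. In the list of B cell identity and the antigen receptor, with 21 measured genes, 0 were past 2-fold and 2 were 1.5-fold higher with BP5 (median 0.06). These were BACH1 and VAV3, a guanine nucleotide exchange factor downstream of the receptor, at 0.62 ± 0.34. BACH1 lies in the uneven block, and its value comes from the subtraction. VAV3 stood at 0.51 after the signal correction, under 1.5-fold. VAV2, a relative of VAV3, lay the other way (-0.44 ± 0.20). The list median was again 0.06 after the signal correction. In the list of Toll-like receptors and NF-kB, with 13 measured genes, 0 were 1.5-fold higher and 3 were 1.5-fold lower with BP5, and the median of -0.05 became -0.10 after the signal correction. Besides TAB1 these were the adaptor MYD88 (-0.89 ± 0.24) and NFKB2, a precursor of the p52 subunit (-0.62 ± 0.21). MYD88 lies in the uneven block, where its neighbours had a median of -0.59, and it read -0.53 with BP5, 0.96 with BSP-II and 0.66 in the control. NFKB2 read 1.95, 2.36 and 2.502, with BP5 the lowest of the 3 arrays.

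Among 16 immediate-early genes, transcripts that respond to stimuli within an hour or so, 0 were 1.5-fold higher and 2 were 1.5-fold lower with BP5, with a list median of -0.11 before and after the signal correction. DUSP1, a phosphatase of MAP kinases, read 1.38 with BP5, 2.63 with BSP-II and 1.91 in the control, a difference of -0.90 ± 0.21. DUSP1 lies in the uneven block, where its neighbours had a median of -0.35, and these levels are not corrected for it. MAFF, a small Maf transcription factor, read 3.90, 4.57 and 4.41 (-0.74 ± 0.20), and the related MAFK had a difference of -0.55 ± 0.20. Only 3 interferon-stimulated genes could be measured, IRF1 (-0.61 ± 0.36), IFI6 (-0.40 ± 0.27) and IRF2 (0.22 ± 0.21), of which IRF1 was past 1.5-fold.

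Of 6 cytokine genes, GDF3 alone was past 1.5-fold. IL18, a cytokine of the interleukin-1 family, had a difference of 0.41 ± 0.24 and TGFB2 -0.39 ± 0.20. None of the 10 cytokine receptor genes was past 1.5-fold, with TNFRSF8 at -0.47 ± 0.26, the growth hormone receptor GHR at -0.43 ± 0.21 and TNFRSF1B at 0.33 ± 0.32. In the MAPK, PI3K and Wnt list, with 31 measured genes, CTNNB1, which encodes beta-catenin, was 1.5-fold higher (0.80 ± 0.21) and CSNK2A1, a catalytic subunit of casein kinase 2, 1.5-fold lower (-0.66 ± 0.20). The Wnt receptor FZD4 had a difference of -0.55 ± 0.20. Of the 13 TGF-beta and BMP genes GDF3 was again the only member past 1.5-fold, with the receptor ACVR2A at 0.41 ± 0.22.

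In the lists for DNA and the cell cycle, 0 genes were past 2-fold. Of 34 DNA replication genes 2 were 1.5-fold lower with BP5, MCM5 and the fork protection protein TIPIN (-0.77 ± 0.20). Of 37 genes of homologous recombination and repair 2 were 1.5-fold higher, the kinase ATM (0.89 ± 0.36) and BRCA1 (0.61 ± 0.21), which acts in homologous recombination. ATM read -0.95 with BP5, -1.93 with BSP-II and -1.01 in the control. FANCC, of the Fanconi anaemia core complex, had a difference of 0.58 ± 0.21. Of 47 mitosis and cell cycle genes 3 were 1.5-fold higher and 0 lower. They were NDC80, which binds kinetochores to microtubules (0.85 ± 0.20), the cohesin subunit SMC3 (0.84 ± 0.22) and the checkpoint kinase TTK (0.59 ± 0.39). NDC80 read 3.65, 3.06 and 3.60, with BSP-II the low array.

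**Figure D4:**
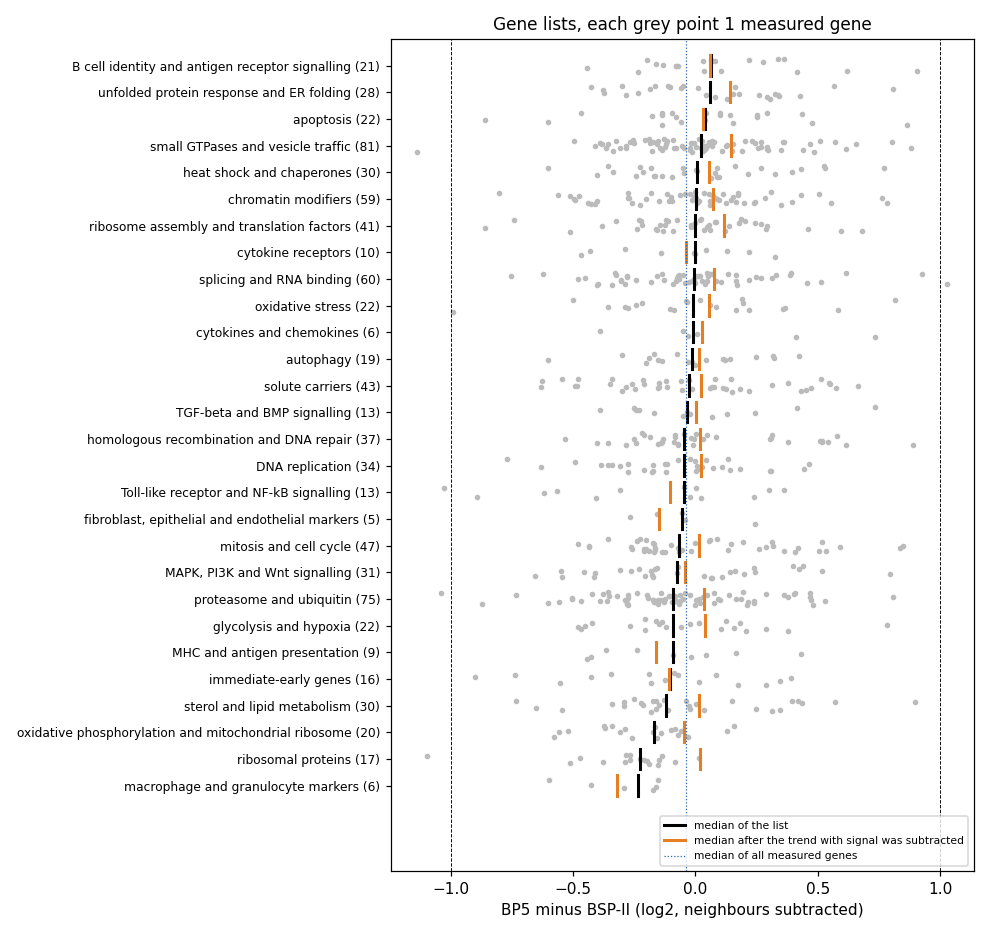
Each grey point is 1 measured gene of a list (number of measured genes in brackets), placed by BP5 minus BSP-II (log2, neighbouring probes subtracted). Black bars are list medians, orange bars medians after the trend with signal was subtracted, the dotted line is the median of all genes and dashed lines mark 2-fold. The black bar of ribosomal proteins stands at -0.23 and its orange bar at 0.02.

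Of 17 measured ribosomal protein genes, 16 lay below the median of all genes. The list median was -0.23, and it was 0.02 after the signal correction. RPL37A was past 2-fold, followed by RPS14 (-0.51 ± 0.20) and RPL4 (-0.47 ± 0.20). After the signal correction these 3 genes stood at -0.86, -0.28 and -0.22. RPL37A passed 2-fold in 10 of 14 other settings. The 20 genes of oxidative phosphorylation and the mitochondrial ribosome also lay mostly low, 17 below the median of all genes, with a list median of -0.17 that became -0.05. None of the 20 was past 1.5-fold, with the mitochondrial ribosomal proteins MRPL50 (-0.58 ± 0.20), MRPL37 (-0.56 ± 0.20) and MRPS6 (-0.52 ± 0.20) the farthest out. Of 41 genes of ribosome assembly and translation, 2 were 1.5-fold higher and 2 lower. The initiation factors EIF4G2 (-0.86 ± 0.20) and EIF3L (-0.74 ± 0.20) were lower with BP5, and NOC2L, a nucleolar assembly factor, was higher (0.68 ± 0.21).

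Of 60 splicing and RNA-binding genes, 3 were at least 1.5-fold higher and 2 lower. HNRNPA2B1 and HNRNPH3 led the first group, and HNRNPH3 read 5.44 with BP5, 4.40 with BSP-II and 4.67 in the control. The splicing factor BUD13 was lower with BP5 (-0.75 ± 0.20). Among 59 chromatin modifiers 2 were 1.5-fold higher, the histone demethylase KDM3A (0.78 ± 0.21) and MTA1 of the NuRD complex (0.76 ± 0.23), and BRD8, a bromodomain subunit of an acetyltransferase complex, was 1.5-fold lower (-0.80 ± 0.20). The 3 histone genes measured, H2AFZ, H3F3B and H2AFY, had differences of -0.32, -0.06 and 0.05. H2AFY lies in the uneven block, its neighbours had a median of -0.75, and its own difference before subtraction was -0.70.

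Of 75 proteasome and ubiquitin genes, 4 were 1.5-fold lower with BP5, with a list median of -0.09 that became 0.04 after the signal correction. MIB2 was the farthest of these, followed by FBXO8 (-0.87 ± 0.22), whose neighbours had a median of -1.02, and MYLIP, which marks the LDL receptor for degradation (-0.73 ± 0.35). Among 81 genes of small GTPases and vesicle traffic, 4 were 1.5-fold higher and RAC1 alone lower. The higher genes included RAB22A, a Rab of endosomes (0.88 ± 0.21), and AP1G1, a subunit of the clathrin adaptor AP-1 (0.81 ± 0.25). RAB22A read 1.21 with BP5, 0.55 with BSP-II and 0.41 in the control.

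Stress lists had few members past 1.5-fold. Of 22 oxidative stress genes, PARK7, a redox-sensitive chaperone, was just short of 2-fold lower with BP5 (-0.99 ± 0.20), with levels of 4.45 with BP5, 5.50 with BSP-II and 5.31 in the control. NFE2L2, the main transcription factor of the antioxidant response, was 1.5-fold higher (0.82 ± 0.20), and the pentose phosphate enzyme PGD stood at 0.58 ± 0.20. Of 30 heat shock and chaperone genes, FKBP4, a co-chaperone of HSP90, was 1.5-fold higher (0.77 ± 0.21) and HSPA2 was 1.5-fold lower (-0.60 ± 0.14). HSPA2 is a mean of probes at -0.81 ± 0.20 in column 3 and -0.40 ± 0.20 in column 55. Only the edge probe was past 1.5-fold. Among 28 genes of the unfolded protein response and folding in the endoplasmic reticulum, 0 were 1.5-fold lower, and SEL1L, an adaptor of protein degradation there, stood at 0.57 ± 0.22. Of 22 apoptosis genes, PDCD4, an inhibitor of translation initiation, was 1.5-fold higher (0.87 ± 0.20). PDCD10 (-0.86 ± 0.21) and BCL2L1, which protects mitochondria (-0.60 ± 0.20), were 1.5-fold lower. Of the 4 p53 targets measured, DDB2, GADD45A and TP53INP1 had differences of 0.52, -0.35 and -0.23. Of 19 autophagy genes STBD1, which binds glycogen, was the only one past 1.5-fold (-0.60 ± 0.38).

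In metabolism, KDM3A was the only one of 22 glycolysis and hypoxia genes past 1.5-fold. Of 30 sterol and lipid genes, MYLIP and the lysosomal cholesterol carrier NPC2 (-0.65 ± 0.20) were 1.5-fold lower with BP5. Among 43 solute carriers SLC23A2, a transporter of vitamin C, was 1.5-fold higher (0.67 ± 0.24), and the folate transporter SLC19A1 (-0.63 ± 0.20) and SLC16A9 (-0.63 ± 0.21) were lower. None of the 9 genes of MHC and antigen presentation was past 1.5-fold. The protease CTSS had -0.44 ± 0.20, PDIA3 of the peptide-loading complex -0.42 ± 0.20 and CTSD, a lysosomal protease, 0.43 ± 0.21.

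Markers of other cell types were read in the same way. All 6 measured macrophage and granulocyte markers lay below the median of all genes, with a list median of -0.23 that was -0.32 after the signal correction. CEBPB, a transcription factor also active in other cell types, was 1.5-fold lower with BP5 (-0.60 ± 0.21), and AVD, which encodes avidin, stood at -0.43 ± 0.20. Of the marker genes fixed for this cell type, the summed level relative to each array's 75th percentile was 10.53 with BP5, 13.7 with BSP-II and 12.5 in the control, and MARCO, TREM2, LECT2 and CSF3R did not stand well above background on any of the 3 arrays. For T cell markers the sums were 12.96, 17.03 and 15.19, with CD3D at -0.46 ± 0.20. The sums of B cell markers were 317.4, 324.6 and 257.8, those of fibroblast, epithelial and endothelial markers 5.72, 5.83 and 4.69, and those of erythroid and thrombocyte markers 4.89, 6.10 and 9.69. These sums are of levels before the log, so the brightest genes carry most of them. AVD, CD3D and TUBB1 each make up most of their sum, as do JCHAIN and IRF4 together. In bulk RNA, fewer cells of a type and less RNA per cell cannot be told apart, and the part of other cells in any difference was not tested.

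**Figure D5:**
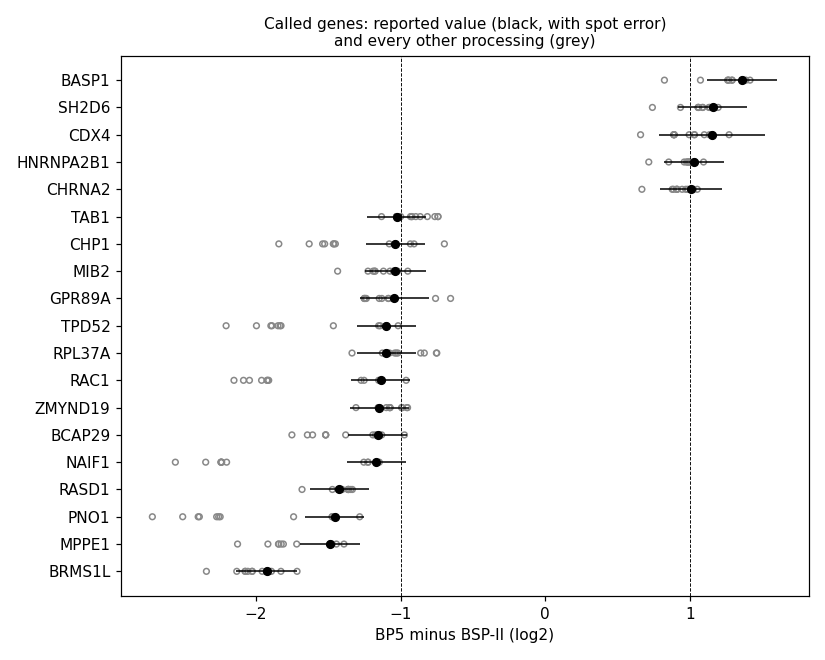
BP5 minus BSP-II (log2) of the 19 genes past 2-fold as reported (black points, bars are the spot error) and under each of the other processing settings (grey circles), with dashed lines at 2-fold. BRMS1L, MPPE1, PNO1, NAIF1, RASD1 and TPD52 stay beyond 2-fold in every setting that measured them, and the 5 genes higher with BP5 do not. The setting without genes in uneven areas leaves out PNO1, NAIF1 and TPD52.

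Across the other settings, all 19 genes kept the sign of their difference wherever they were measured. For 6 of them the difference was past 2-fold in each setting that measured it, and 5 of these 6 lay in the uneven block, RASD1 being the exception.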

How the data were processed

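RNA of 3 groups (BP5, BSP-II, untreated) was measured on 1 array each. Per spot, the deposited intensity is a background-subtracted, detrended and floored signal from Agilent Feature Extraction 10.5.1.1, per the file headers, without normalization between arrays. Quality flags (other values, 0 or 1 per spot) come from the same deposited files. A second deposited file gives the authors' log2 values for 20085 probes, and its 3 columns share a maximum of 17.7 and correlate at 1.000 with log2 of the processed intensity. Its normalization is unknown here, but its median was 7.75 on each array. It gave the same counts as quantile normalization, 4 higher and 31 lower, and it served only as an alternative. The design text speaks of several experiments and cell populations, and their relation to the arrays is not stated there.

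Each array held 43451 spots, of which 1417 control spots were left out, as were 36 probes with a feature outlier flag on a peptide array. The measure was log2(processed signal) scaled to the 75th percentile of probes on each array. Probes well above background on both peptide arrays were kept, and the median of the 15 nearest of them was subtracted. A gene is the mean of its probes, called at 2-fold with all probes of 1 sign. Names came from RefSeq accessions matched without version to the GRCg7b table, for 4000 of 5017 such probes (3870 genes), and the other 38034 probes stay unnamed. The grid names galGal3, so no coordinates are given.

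The members and the 33 gene lists were chosen with earlier results of these data known. Named genes were the 12 largest differences each way, the 3 largest bounds each way, list members past 2-fold and the 3 farthest in each list, called genes with several probes (0 found), and MCM5, DNMT1, CHAF1B and GDF3. Others are marked as chosen later. Some genes that this rule picks are not reported here. Only the subtraction of neighbouring probes was tested on simulated data, with a smooth uneven area and noise of the size of the spot error. Python 3.11.15, numpy 2.4.6, pandas 2.3.3, scipy 1.17.1, R 4.3.3 and limma 3.58.1 were used. Normexp (offset 50) used the median spot signal, because the files used here hold no mean signal.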

Additional observations from a re-analysis of the deposited data

How the results depend on the processing

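No paired analysis was possible because each group has 1 array. Against 5 genes higher and 14 lower with BP5, the counts were 3 and 38 without subtraction of neighbouring probes, 9 higher with 8 neighbours, 25 lower with row and column medians, 31 lower with quantile normalization and in the authors' table, 30 lower with cyclic loess, and 33 lower with scaling by probes detected on all 3 arrays. Quantile normalization, the authors' table, cyclic loess and this scaling had no subtraction of neighbouring probes. Row and column medians took the place of that subtraction. Normexp left 1 higher, and without genes in uneven areas, a setting chosen after seeing the data, 8 were lower. At 1.5-fold the counts were 92 and 83. Without the filter on dim probes they were 34 and 120, with a median of -0.14 over 3860 genes, which include probes at the floor. The other settings left both counts within 1.5 times. The causes were not tested otherwise. Over 112 named genes, 1222 of 1538 values moved by less than the spot error and 0 of the genes past 2-fold changed sign. Some named genes below 2-fold did change sign in other settings. Among them were BACH1 (0.91, at its lowest -0.36) and RPL4 (-0.47, at its highest 0.16). Of the list medians 2 moved by more than the spread of the list. Signals near background limit the dimmest genes, such as CDX4 and ATM.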
